A study of Mus musculus with 30 samples.

Results

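The 34 genes described here take up, activate and oxidise fatty acids, or are known targets of the receptor PPARA in mouse. They were chosen by name, with no measured value in the rule, from the 36558 gene IDs of the table, and all 34 were found and passed the filter on low counts in every comparison. RNA came from heart and from white adipose tissue. The donors were male mice of the inbred laboratory strain C57BL/6J that had received the adeno-associated virus vector AAV8 carrying F11, the gene of coagulation factor XI, or GFP, a fluorescent control protein. Every mouse also had a high-fat diet (HFD) together with l-NAME, which blocks nitric oxide synthases, over 7 weeks, and tissue was taken at an age of 15 weeks, so no group on a plain diet stands beside these. The 29 libraries comprised 7 F11 hearts, 6 GFP hearts, 8 F11 adipose samples and 8 GFP adipose samples. Library L10, a GFP heart, was not analysed here. The promoter that drives each vector is not given in the sources used here. The labels tie neither a library to its own mouse nor a heart to an adipose sample, so the tests see library-to-library spread only, some of which may be technical.

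Long-chain fatty acids enter a cell with the help of CD36 and other carriers, are joined to coenzyme A by acyl-CoA synthetases, and cross into mitochondria as carnitine esters through CPT1, the carnitine carrier and CPT2. Malonyl-CoA blocks CPT1 and so sets the rate of entry. Inside, a cycle of dehydrogenases, a hydratase and a thiolase shortens the chain and passes electrons to the respiratory chain through the electron transfer flavoprotein. PPARA is a nuclear receptor that binds fatty acids and switches on most of these genes, with PGC-1alpha (Ppargc1a) as a coactivator. The working heart draws most of its energy from this pathway, whereas white fat mainly stores and releases fatty acids.

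In units of 1000000 estimated counts, library totals were 25.75 to 33.02 in hearts and 15.95 to 26.33 in adipose tissue. Mitochondrial transcripts took 31.6 to 34.6% of counts in hearts and 3.89 to 11.1% in adipose tissue. The transferred gene itself, F11, was nearly absent from hearts, with 3 counts over the F11 hearts and 13 over the GFP hearts (two-sided exact permutation test of mean CPM, p = 0.629). In adipose tissue it averaged 4.83 ± 3.51 CPM in F11 samples and 0.819 ± 1.19 CPM in GFP samples (SD, n = 8 each, two-sided exact permutation test, p = 0.00295). The groups overlapped, with 0.382 to 11.88 CPM in F11 samples and 0 to 3.459 CPM in GFP samples. Counts per gene do not separate RNA of the vector from RNA of the mouse's own F11. CPM here means counts per 1000000 of the library, after TMM scaling over all libraries. The 8 cardiomyocyte markers summed to 63150 CPM or more in every heart, and the 7 white adipocyte markers to 5720 CPM or more in every adipose library, as the tissue labels state. Some libraries also held transcripts of other tissues. Among hearts, the GFP library L2 had 234.2 CPM of hepatocyte markers, against at most 9.282 CPM in the other hearts. Some adipose libraries held larger amounts. The GFP library G-L140 had 6443 CPM of cardiomyocyte markers, against 23.7 to 129.9 CPM in the other 15. The F11 library G-L142 had 6029 CPM of epididymis markers, against at most 18.9 CPM elsewhere. Hepatocyte markers exceeded 1000 CPM in G-L145 (3495 CPM) and G-L146 (1833 CPM) of the F11 group and in G-L136 (3778 CPM) and G-L137 (1054 CPM) of the GFP group. Results in adipose tissue are therefore given with and without G-L140.

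The first question was whether the F11 vector shifted these genes in the heart. None of the 34 passed an adjusted p under 0.05 in edgeR's quasi-likelihood test with Benjamini-Hochberg adjustment over 14684 genes, of which 0.872% passed (0.518% higher and 0.354% lower in F11 hearts). Only Cpt1b, 1 of the 34, had an unadjusted p under 0.05, as did 12.5% of all genes tested, and DESeq2 and limma voom also called 0 of the 34. The fold changes were F11 over GFP, positive for 12 genes and negative for 22, with a median of -0.012 on the log2 scale beside -0.00556 over all genes tested. The 95% interval lay within 1.5-fold in either direction for 30 of the 34, and the intervals of the 34 genes together ran from -1.03 to 0.37 on the log2 scale. In bulk tissue, fewer cells of a type and less RNA per cell cannot be told apart.

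**Figure D1:**
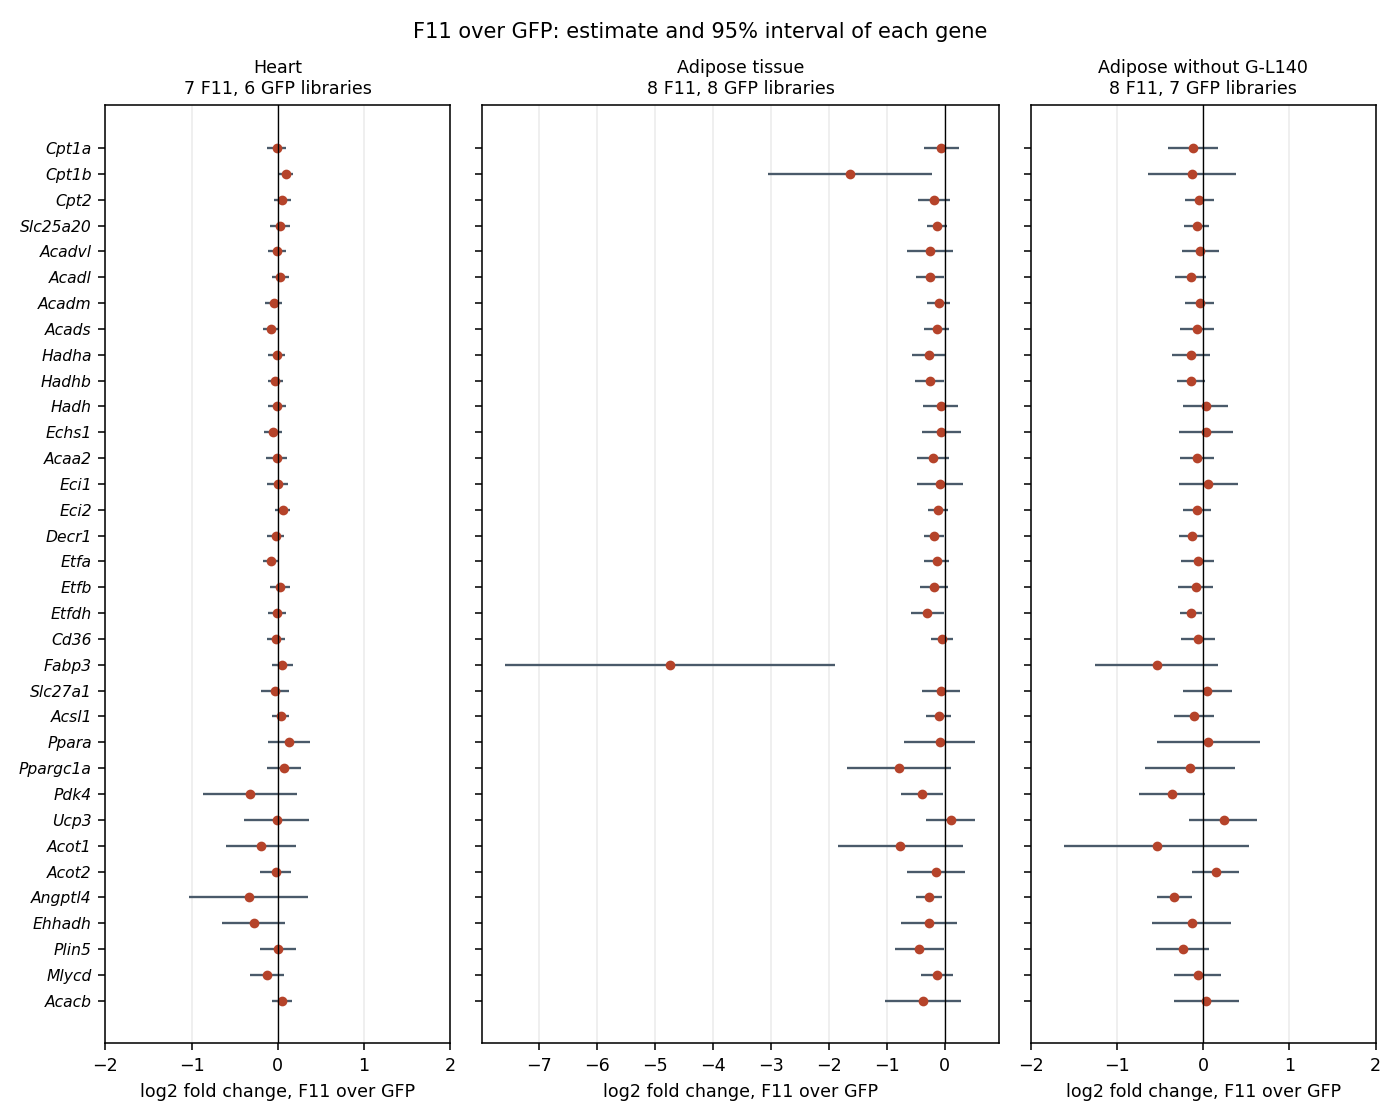
Log2 fold change of F11 over GFP for each of the 34 genes (points) with its 95% interval from edgeR (lines), in hearts, in all adipose libraries, and in adipose libraries without G-L140 (the middle panel has a wider axis). Heart estimates lie close to 0 with short intervals for most genes, and the large negative values of Fabp3 and Cpt1b in adipose tissue are smaller without G-L140.

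Of the carnitine shuttle, Cpt1b, the muscle form of the gate enzyme CPT1, ranged from 851 to 988 CPM in F11 hearts (median 979) and from 838 to 933 CPM in GFP hearts (median 889). The groups overlapped, and 6 of 7 F11 hearts stood above the GFP median. The log2 fold change was 0.09 (SE 0.04, edgeR adjusted p = 0.356). Cpt1a, the form of CPT1 that liver and many other tissues use, ranged from 86.7 to 99.8 CPM in F11 hearts (median 92.3) and from 83.9 to 103.3 CPM in GFP hearts (median 90.9). Its log2 fold change was -0.01 (SE 0.05, edgeR adjusted p = 0.949). Slc25a20, the carnitine carrier, averaged 227 ± 22.7 CPM in F11 hearts and 222 ± 7.03 CPM in GFP hearts. Cpt2, which rebuilds the acyl-CoA inside, averaged 311 ± 22.3 CPM in F11 hearts and 299.5 ± 8.27 CPM in GFP hearts, and neither gene passed the test.

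The 9 genes of the oxidation cycle, which include the chain-length specific dehydrogenases and both subunits of the trifunctional protein, had log2 fold changes from -0.08 (Acads) to 0.03 (Acadl). Acads, the short-chain dehydrogenase, ranged from 220.5 to 265 CPM in F11 hearts (median 246) and from 246.5 to 263 CPM in GFP hearts (median 259). Acadl, the long-chain dehydrogenase, ranged from 1193 to 1409 CPM in F11 hearts (median 1329) and from 1229 to 1353 CPM in GFP hearts (median 1261). In these genes the F11 range enclosed the whole GFP range. Hadhb, the thiolase subunit of the trifunctional protein, ranged from 1963 to 2295 CPM in F11 hearts (median 2215) and from 2089 to 2308 CPM in GFP hearts (median 2190). Between those extremes lay Acadvl and Acadm, the very-long-chain and medium-chain dehydrogenases, Hadha, Echs1, Hadh and Acaa2, with log2 fold changes from -0.06 (Echs1) to -0.01. Eci2 and Decr1, which prepare unsaturated chains for the cycle, had log2 fold changes of 0.06 (SE 0.04, edgeR adjusted p = 0.638) and -0.03 (SE 0.05, edgeR adjusted p = 0.883), and the third gene of this kind, Eci1, averaged 236.9 ± 23.8 CPM in F11 hearts and 236.8 ± 6.82 CPM in GFP hearts. Etfa, a subunit of the electron transfer flavoprotein, ranged from 515 to 626 CPM in F11 hearts (median 584.5) and from 574 to 644 CPM in GFP hearts (median 611). Its groups overlapped, and 6 of 7 F11 hearts stood below the GFP median (log2 fold change -0.08, SE 0.04, edgeR adjusted p = 0.512). Its partner subunit Etfb had 0.02 (SE 0.055) and Etfdh -0.006 (SE 0.05).

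Fabp3, the fatty acid binding protein of heart muscle, was the most abundant of the 34 per kb of transcript in hearts, at 4178 CPM per kb in F11 hearts and 4017 CPM per kb in GFP hearts. It ranged from 2902 to 3965 CPM in F11 hearts (median 3482) and from 3040 to 3446 CPM in GFP hearts (median 3375), and its log2 fold change was 0.05 (SE 0.06, edgeR adjusted p = 0.764). Cd36, Slc27a1 and Acsl1 had log2 fold changes of -0.02 (SE 0.05), -0.035 (SE 0.08) and 0.04 (SE 0.05). Ppara itself ranged from 39.7 to 70.6 CPM in F11 hearts (median 58.1) and from 46.7 to 61.7 CPM in GFP hearts (median 52.2), with overlapping groups (log2 fold change 0.13, SE 0.11, edgeR adjusted p = 0.69). Library L40 was the lowest F11 heart for Ppara. The estimate was 0.207 without L40 and 0.081 without L33, the highest F11 heart. Ppargc1a ranged from 151 to 214 CPM in F11 hearts (median 178) and from 140.2 to 207 CPM in GFP hearts (median 174), and its log2 fold change was 0.07 (SE 0.09, edgeR adjusted p = 0.835).

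The widest intervals in hearts belonged to genes that PPARA is known to regulate. Pdk4, the kinase that shuts off pyruvate dehydrogenase and so spares glucose, ranged from 1029 to 2996 CPM in F11 hearts (median 1336) and from 1614 to 2619 CPM in GFP hearts (median 2034). Within the F11 group L40 (2996 CPM) and L39 (2376 CPM) were high, and the other 5 lay between 1029 and 1507 CPM. Its log2 fold change was -0.32 (SE 0.25, edgeR adjusted p = 0.654), and without L40 it was -0.525 (edgeR adjusted p = 0.263). With each heart left out in turn, the Pdk4 estimate ranged from -0.525 to -0.232. Angptl4, a secreted inhibitor of lipoprotein lipase, showed the same libraries apart. It ranged from 12.8 to 56.2 CPM in F11 hearts (median 18.2), with 56.2 CPM in L40 and 29.4 CPM in L39, and from 25.5 to 34.4 CPM in GFP hearts (median 31.5). The groups overlapped, and 6 of 7 F11 hearts stood below the GFP median. The log2 fold change was -0.34 (SE 0.32, edgeR adjusted p = 0.729), and without L40 it was -0.69 (edgeR adjusted p = 0.0945). For Angptl4 the range with each heart left out in turn was -0.69 to -0.225.

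Ucp3, a mitochondrial carrier of muscle whose level follows fatty acid supply, ranged from 100.4 to 184 CPM in F11 hearts (median 111) and from 97.4 to 162 CPM in GFP hearts (median 131.5). It is described here after its values were seen. The 184 and 178 CPM of L40 and L39 were again the highest F11 values. Ehhadh, the bifunctional enzyme of peroxisomal oxidation, ranged from 15.6 to 26.7 CPM in F11 hearts (median 17.4) and from 16.9 to 33.4 CPM in GFP hearts (median 21.6). Its log2 fold change was -0.28 (SE 0.17, edgeR adjusted p = 0.539), and without the GFP heart L8, its highest library, it was -0.14 (edgeR adjusted p = 0.755). Mlycd, which breaks down malonyl-CoA, ranged from 120.3 to 196 CPM in F11 hearts (median 137.4) and from 148.3 to 170.2 CPM in GFP hearts (median 164), and L40 and L39 were its highest F11 hearts as well. Acacb, which makes malonyl-CoA, ranged from 639.6 to 824 CPM in F11 hearts (median 723) and from 652 to 706 CPM in GFP hearts (median 694).

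Over the 7 genes of this class (Pdk4, Ucp3, Acot1, Acot2, Angptl4, Ehhadh and Plin5), L40 was the highest F11 heart for all 7, and L39 was among the highest pair for 6. The exception was Plin5, for which L33 (166.7 CPM) stood above L39 (164.4 CPM). Plin5 averaged 150.7 ± 26.9 CPM in F11 hearts and 150.0 ± 6.89 CPM in GFP hearts. Among GFP hearts, L9 was the lowest for 6 of the 7, and L8 and L6 were the highest for 3 each. The place of L9 was not particular to this class, as it was the lowest GFP heart for 23 of all 34 genes. L6 was the highest GFP heart for 16 of the 34. Of the F11 hearts, L40 was the highest for 15 of the 34, as was L33, which was the highest for 0 of the 7. L38 was the lowest F11 heart for 26 of the 34. The SD of log2 CPM within F11 hearts had a median of 0.358 over these 7 genes and 0.106 over the 9 cycle genes, and within GFP hearts 0.235 and 0.06. Erythroid markers were high in L40 (3078 CPM) and L8 (3635 CPM) and lay between 481 and 891 CPM in the other hearts, L39 included (674 CPM). Atrial markers summed to 1147 CPM in L40 and 339 CPM in L39, within the F11 range of 339 to 3310 CPM, and to 52.5 CPM in L8. The cardiomyocyte marker sum ranged from 70810 to 81480 CPM in F11 hearts and from 63150 to 66500 CPM in GFP hearts, with no overlap. Its largest part was Myh6, at 38710 to 44840 CPM in F11 hearts and 32190 to 36830 CPM in GFP hearts. Of the 8 markers 1 was called higher and 0 lower, with a median log2 fold change of 0.078. Over all heart genes 0.518% were called higher and 0.354% lower. Of 9 clock genes, 4 were called higher and 3 lower in F11 hearts. The part of these differences in the results above was not tested.

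**Figure D2:**
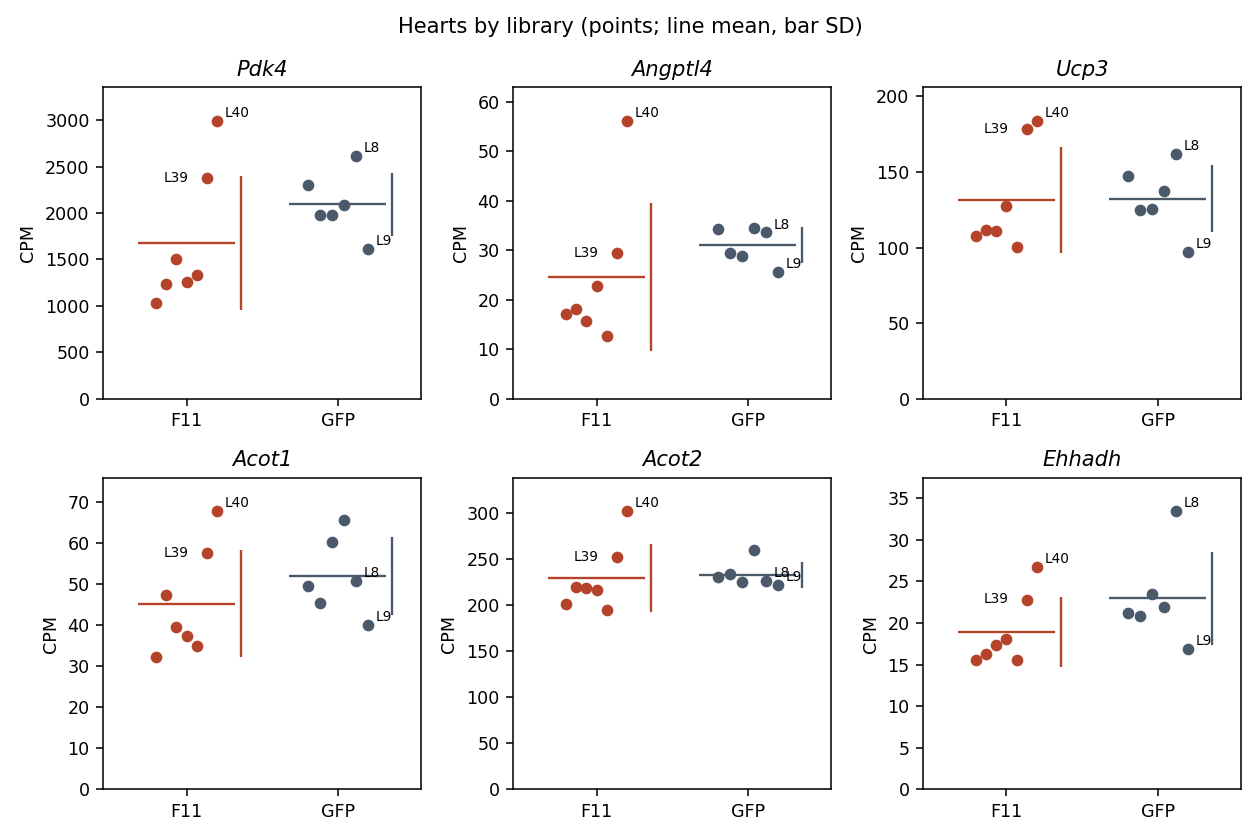
CPM of 6 PPARA target genes in each heart library (points), with the group mean (line) and SD (vertical bar), F11 hearts left and GFP hearts right. Libraries L39 and L40 stand above the other F11 hearts in each panel, and for Pdk4 the other 5 lie between 1029 and 1507 CPM. Plin5, for which L39 was not among the highest pair, is not drawn.

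The proximal promoters of Ucp3 and Pdk4 are shown because both genes had their high F11 values in the same pair of hearts. Nuclear receptors of the PPAR class bind pairs of the core site AGGTCA, which is in capitals where present (either strand). The sequences are from RefSeq, build GRCm38.p6, and run 5′ to 3′ toward the start of the gene. Ucp3 (chr7:100472741-100472989, plus strand) has the core site 149 and 44 bases before its start, and Pdk4 (chr6:5496310-5496528, minus strand) has none in this stretch.
Ucp3: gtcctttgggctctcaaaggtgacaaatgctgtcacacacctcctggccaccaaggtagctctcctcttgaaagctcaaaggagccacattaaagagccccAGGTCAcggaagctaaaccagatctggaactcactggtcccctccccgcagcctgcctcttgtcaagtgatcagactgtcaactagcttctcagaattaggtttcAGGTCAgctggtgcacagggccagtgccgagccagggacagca
Pdk4: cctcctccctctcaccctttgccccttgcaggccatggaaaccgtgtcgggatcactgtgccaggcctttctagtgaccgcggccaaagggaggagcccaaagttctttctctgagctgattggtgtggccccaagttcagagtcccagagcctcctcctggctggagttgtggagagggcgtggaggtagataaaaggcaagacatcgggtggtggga
RefSeq windows from 250 bases before to 50 after the start were found for 30 of the 34 genes (not Cpt1b, Angptl4, Acaa2 and Decr1), 34 windows in all. AGGTCA was in 9 of these 34 windows, of 8 genes (Acacb, Acadm, Acadvl, Cd36, Cpt1a, Echs1, Plin5 and Ucp3), and in 16.3% of the 32851 windows of all genes. The DR1 element, this core site repeated with 1 free base between the copies, and a looser DR1 in which the fourth base of each copy may be any base, were in 0 of the 34 windows on either strand, and in 0.04% and 0.381% of all windows. The looser form includes the strict one. A match describes the letters only.

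Acot1 encodes a cytosolic acyl-CoA thioesterase and Acot2 its mitochondrial relative, and the genes lie 15616 bases apart on chromosome 12. Their coding sequences were identical at 95.5% of 1235 aligned bases, with 273 identical bases in the longest run, so that the authors' pseudoalignment had to divide reads between them and their separate levels are uncertain. The stretch of 120 bases with the most differences is shown, with the 14 bases that differ in capitals. Coordinates are GRCm38, plus strand, chr12:84016886-84017005 for Acot1 and chr12:83992608-83992727 for Acot2.
Acot1: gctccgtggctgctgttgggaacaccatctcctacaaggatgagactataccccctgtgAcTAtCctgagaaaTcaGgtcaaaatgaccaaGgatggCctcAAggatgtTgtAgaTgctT
Acot2: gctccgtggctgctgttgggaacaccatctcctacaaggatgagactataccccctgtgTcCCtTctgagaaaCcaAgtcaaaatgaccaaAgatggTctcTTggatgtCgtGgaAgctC
Acot1 ranged from 32.3 to 67.8 CPM in F11 hearts (median 39.6) and from 40.15 to 65.6 CPM in GFP hearts (median 50.2), with a log2 fold change of -0.20 (SE 0.19, edgeR adjusted p = 0.725). This estimate was -0.325 without the F11 heart L40, -0.131 without the F11 heart L31 and -0.123 without the GFP heart L6. Acot2 ranged from 195 to 302 CPM in F11 hearts (median 218.5) and from 222 to 260.5 CPM in GFP hearts (median 228), with a log2 fold change of -0.03 (SE 0.09, edgeR adjusted p = 0.94). Of the other genes, Cpt1b shared 79.7% of its 31-base words with Gm44502, Etfb 47.4% with Gm45233, Fabp3 35.2% with Fabp3-ps1 and Hadhb 19.5% with Gm13910. These partners did not exceed 4.74 CPM in any library.

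In adipose tissue, again none of the 34 genes was called by edgeR's quasi-likelihood test, where 0% of 15229 genes passed and the lowest adjusted p was 0.355. At an unadjusted p under 0.05 edgeR gave 9 of the 34 and 4.19% of all genes tested, and DESeq2 and limma voom called 0 of them. The estimates leaned one way, with 33 of 34 negative and a median log2 fold change of -0.18, beside -0.000708 over all genes. With limma voom, which gives each library a quality weight, the median over the same libraries was -0.04 and 10 of 34 were positive. Without G-L140, 0% of 15343 genes passed, 26 of 34 estimates were negative, the median was -0.07, and 2 (Angptl4 and Etfdh) had an unadjusted p under 0.05, as did 5.79% of all genes. Without the 6 libraries rich in cardiomyocyte, epididymis or hepatocyte markers, 22 of 34 were negative and the median was -0.04.

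Fabp3 and Cpt1b had the largest estimates and turned on G-L140. Fabp3 ranged from 1.121 to 2.29 CPM in F11 adipose samples (median 1.61) and from 1.35 to 331 CPM in GFP adipose samples (median 1.71). The value of 331 CPM belonged to G-L140, and the next highest GFP library, G-L138, had 6.65 CPM and also the second highest cardiomyocyte marker sum, 129.9 CPM. The log2 fold change of Fabp3 was -4.73 (SE 1.34, edgeR adjusted p = 0.939), and -0.54 (SE 0.33, edgeR adjusted p = 0.819) without G-L140. Cpt1b ranged from 2.38 to 6.84 CPM in F11 adipose samples (median 4.04) and from 2.90 to 79.1 CPM in GFP adipose samples (median 4.83), where G-L140 was again the highest and 7.74 CPM the next. The log2 fold change of Cpt1b was -1.64 (SE 0.67, edgeR adjusted p = 0.9996), and -0.13 (SE 0.24, edgeR adjusted p = 0.914) without G-L140. Ppargc1a had a log2 fold change of -0.79 (SE 0.42) with G-L140 and -0.15 (SE 0.24) without it, and Acot1 had -0.76 (SE 0.51) with it and -0.54 (SE 0.50) without it. Without G-L142, its highest F11 library at 6.165 CPM, Acot1 had -1.26.

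The estimates of Angptl4 and Pdk4 changed less without G-L140. Angptl4, which fat secretes in fasting, ranged from 291 to 483 CPM in F11 adipose samples (median 429) and from 366 to 595 CPM in GFP adipose samples (median 539). All 8 F11 samples lay below the GFP median, and the groups overlapped. G-L140 was the lowest GFP sample, at 366 CPM, and the F11 sample G-L142 the lowest of all 16. The log2 fold change was -0.275 (SE 0.11, edgeR adjusted p = 0.9996), and -0.33 (SE 0.09, edgeR adjusted p = 0.811) without G-L140. Pdk4 ranged from 36.4 to 99.6 CPM in F11 adipose samples (median 89.7) and from 82.8 to 120.7 CPM in GFP adipose samples (median 112). All 8 F11 samples again lay below the GFP median, and G-L142 and G-L146 were low in the F11 group, at 36.4 and 53.6 CPM. The log2 fold change of Pdk4 was -0.39 (SE 0.17, edgeR adjusted p = 0.9996), and -0.36 (SE 0.18, edgeR adjusted p = 0.811) without G-L140. Without the 6 libraries rich in other tissues' markers, the estimates were -0.15 for Pdk4 and -0.34 for Angptl4.

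Among the mitochondrial genes of adipose tissue, Hadhb ranged from 158 to 244 CPM in F11 samples (median 232) and from 223 to 409 CPM in GFP samples (median 249), and all 8 F11 samples lay below the GFP median. Its log2 fold change was -0.26 (SE 0.12, edgeR adjusted p = 0.9996), and -0.14 (SE 0.08) without G-L140. Acadl had a log2 fold change of -0.25 (SE 0.11) with G-L140 and -0.15 (SE 0.08) without it, and Decr1 had -0.19 (SE 0.08) with it and -0.13 (SE 0.07) without it. Etfdh, which hands electrons on to ubiquinone and is named after its values were seen, ranged from 62.3 to 82.9 CPM in F11 samples (median 77.9) and from 70.9 to 162 CPM in GFP samples (median 86.05). All 8 F11 samples lay below the GFP median, with log2 fold changes of -0.30 (SE 0.135) with G-L140 and -0.14 (SE 0.06, edgeR adjusted p = 0.811) without it. Acads, Eci2, Etfa and Mlycd had log2 fold changes between -0.14 and -0.11 with G-L140, and between -0.07 and -0.06 without it. Ppara ranged from 1.57 to 4.71 CPM in F11 samples (median 2.70) and from 1.67 to 5.17 CPM in GFP samples (median 2.88), with a log2 fold change of -0.085 (SE 0.29), and 0.06 (SE 0.28) without G-L140. Ucp3 was the only gene of the 34 with a positive estimate in all libraries, 0.10 (SE 0.20), and it had 0.24 (SE 0.18) without G-L140. Neither value passed the test.

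Within the F11 adipose group, G-L142 was the lowest library for 23 of the 34 genes, and its white adipocyte marker sum was 6810 CPM beside a group median of 8843 CPM. The sum was lower still in G-L148, at 5720 CPM, which was the lowest library for 5 of the 34 genes and the highest for 5. G-L145, the F11 library with the most hepatocyte markers, was the highest for 15 of the 34, and G-L146, also rich in these markers, for 0. In the GFP group without G-L140, G-L136, the library with the most hepatocyte markers, was the highest for 18 of the 34, whereas G-L137, with 1054 CPM of these markers, was the highest for 1 and the lowest for 9. Ehhadh, a gene that liver expresses strongly, reached 68.0 CPM in G-L145 and 75.4 CPM in G-L136, beside group medians of 33.9 CPM in F11 samples and 40.35 CPM in GFP samples. It was higher still in G-L140, at 79.1 CPM, where hepatocyte markers summed to 37.9 CPM. Of the other libraries rich in these markers, G-L146 had 50.6 CPM of Ehhadh and G-L137 had 35.85 CPM. Cpt1a ranged from 115.8 to 212 CPM in F11 samples (median 138.2) and from 111 to 209 CPM in GFP samples (median 152). Its highest value in each group was in G-L148 and G-L133, the libraries with the highest macrophage marker sums, 5241 and 4400 CPM. Its log2 fold change was -0.06 (SE 0.14, edgeR adjusted p = 0.9996). The part of these markers in the results was not tested.

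In G-L140, 30 of the 34 genes were at their highest among the 16 adipose libraries, and 22 were over 1.5 times the median of the other GFP adipose libraries. The exceptions were Cpt1a, Cd36, Acsl1 and Angptl4. The excess of G-L140 over that median was 5.60 to 14.6% of the GFP heart mean for the 8 cardiomyocyte markers. It was 9.96% for Fabp3, 8.37% for Cpt1b and 8.31% for Ppargc1a. For the 10 genes more than 10 times higher in heart than in that median, it ranged from 0.542% (Pdk4) to 12.65% (Acadvl). For 4 genes it was larger than for any cardiomyocyte marker by over 1.5 times, at 171% for Ehhadh, 72.3% for Slc27a1, 27.8% for Acacb and 22.7% for Echs1. Slc27a1 is a fatty acid transport protein. White adipocyte markers in G-L140 summed to 10120 CPM, within the 7022 to 10310 CPM of the other GFP adipose libraries. Single markers of that list lay at opposite ends of the 16 adipose libraries. In G-L140 Lep was at its lowest, 624.2 CPM, and Cfd at its highest, 2641 CPM.

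**Figure D3:**
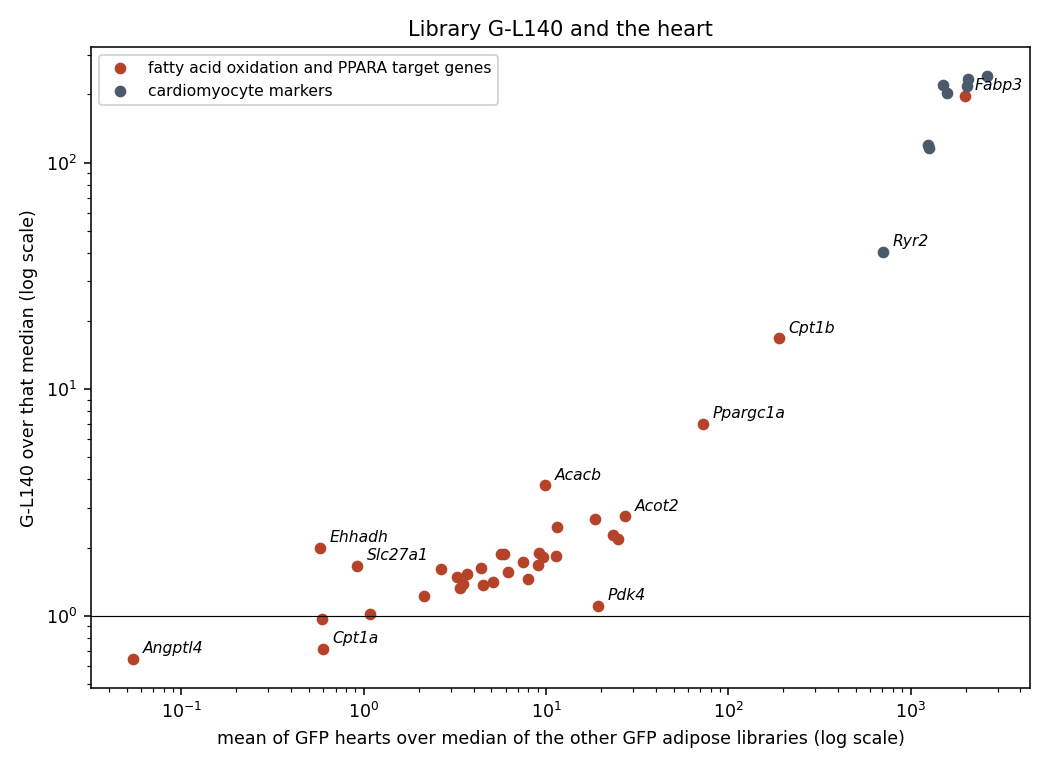
Level in adipose library G-L140 (vertical, log scale) against the mean of the GFP hearts (horizontal, log scale), each divided by the median of the other 7 GFP adipose libraries, for the 34 genes and 8 cardiomyocyte markers. In G-L140 Fabp3 is at 198 times, Cpt1b at 16.8 times and Ppargc1a at 7.05 times that median. The other genes more than 10 times higher in heart lie between 1.104 times (Pdk4) and 2.74 times (Acot2).

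The difference between the effects of the vector in heart and in adipose tissue was tested as an interaction over all 29 libraries. None of the 34 genes was called by edgeR, where 0.0242% of 16526 genes passed, and 2 had an unadjusted p under 0.05, as did 7.43% of all genes. Those were Fabp3, with a heart minus adipose difference of 4.78 in log2 fold change (SE 1.39, edgeR adjusted p = 0.299), and Cpt1b, with 1.73 (SE 0.74, edgeR adjusted p = 0.59). DESeq2 called 1 of the 34, Fabp3, with an adjusted p of 0.00151, and limma voom called 0. Over all 16526 genes DESeq2 called 140 higher and 49 lower, and limma voom 10 and 14. Without G-L140 the differences were 0.59 (SE 0.34, edgeR adjusted p = 0.664) for Fabp3 and 0.23 (SE 0.25, edgeR adjusted p = 0.846) for Cpt1b. In that fit 0.0121% of 16584 genes and 0 of the 34 were called, and 0 of the 34 had an unadjusted p under 0.05, against 8.72% of all genes.

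The tissues themselves differed in almost every one of these genes. Under F11, 29 of the 34 were called higher in heart than in adipose tissue and 4 lower, where 81.7% of 15719 genes were called (38.9% higher and 42.8% lower). Under GFP, 28 were called higher and 4 lower, where 81.4% of 15578 genes were called (37.7% higher and 43.6% lower). Without G-L140 the members' counts under GFP were again 28 and 4, where 82.4% of 15576 genes were called (40.2% higher and 42.2% lower). The median log2 fold change of heart over adipose tissue was 2.66 under F11 and 2.45 under GFP, beside -0.0616 and -0.0901 over all genes tested, and 2.61 under GFP without G-L140. All 4 were called lower under each vector and with every scaling tried. They were Angptl4, Ehhadh, Cd36 and Cpt1a. TMM centres the bulk of genes near 0, and scaling by library totals alone placed the median gene at -1.09 under F11 and -1.02 under GFP. With library totals, 27 of the 34 were called higher and 6 lower under each vector, and of all calls 16.7% under F11 and 17.5% under GFP were higher, beside 47.7% and 46.4% with TMM.

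Fabp3 differed most, at 3439 ± 331 CPM in F11 hearts (n = 7) and 1.64 ± 0.419 CPM in F11 adipose samples (SD, n = 8), a log2 fold change of 11.07 (SE 0.18, edgeR adjusted p = 2.34e-17). Under GFP it was 6.24 (SE 1.53, edgeR adjusted p = 0.00175) and, without G-L140, 10.47 (SE 0.41, edgeR adjusted p = 8.3e-12). Cpt1b averaged 950 ± 50.5 CPM in F11 hearts and 4.57 ± 1.68 CPM in F11 adipose samples, a log2 fold change of 7.74 (SE 0.23, edgeR adjusted p = 2.49e-14). Under GFP it was 5.96 (SE 0.83) and, without G-L140, 7.51 (SE 0.18). The regulators Ppargc1a and Ppara were also far higher in heart. Ppargc1a averaged 183 ± 21.02 CPM in F11 hearts and 2.76 ± 0.509 CPM in F11 adipose samples (log2 fold change 6.07, SE 0.13, edgeR adjusted p = 4.36e-16). Ppara averaged 58.0 ± 10.5 CPM in F11 hearts and 2.88 ± 1.06 CPM in F11 adipose samples (log2 fold change 4.35, SE 0.22, edgeR adjusted p = 2.55e-11).

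The 9 genes of the oxidation cycle and the 3 of the electron transfer flavoprotein were all called higher in heart, by smaller factors, although Echs1 was not called under F11 when scaled by library totals. Under F11 their log2 fold changes ran from 1.26 (Echs1, the hydratase) to 3.60 (Hadha, the other trifunctional subunit), with a median of 2.88 over the cycle genes. Pdk4 averaged 1677 ± 726 CPM in F11 hearts and 79.6 ± 22.9 CPM in F11 adipose samples (log2 fold change 4.43, SE 0.28, edgeR adjusted p = 5e-10). Plin5, a lipid droplet protein that ties droplets to mitochondria, and Acot2 had log2 fold changes of 4.93 (SE 0.15) and 4.67 (SE 0.13) under F11, and both were called higher. Mlycd and Acacb, which destroy and make the malonyl-CoA that restrains CPT1, were both called higher in heart, at 2.89 (SE 0.13) and 3.33 (SE 0.17) under F11.

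The other genes of uptake and activation showed smaller differences, and Cd36 went the other way. Cd36, the membrane fatty acid translocase, averaged 2311 ± 159 CPM in F11 hearts and 3975 ± 570.5 CPM in F11 adipose samples, and fell in heart by 0.75 on the log2 scale (SE 0.09, edgeR adjusted p = 8.28e-07). Acsl1, the main long-chain acyl-CoA synthetase of heart and fat, was called higher in heart under F11 (log2 fold change 0.275, SE 0.08, edgeR adjusted p = 0.0041) but lower when scaled by library totals, and was not called under GFP. Slc27a1 had a log2 fold change of -0.19 (SE 0.12, edgeR adjusted p = 0.164) under F11. Angptl4 averaged 24.6 ± 15.0 CPM in F11 hearts and 423 ± 57.7 CPM in F11 adipose samples (log2 fold change -4.07, SE 0.30, edgeR adjusted p = 2.63e-09), and Ehhadh had a log2 fold change of -1.04 (SE 0.19, edgeR adjusted p = 0.000126) under F11. Cpt1a, the other form of CPT1, had -0.65 (SE 0.11, edgeR adjusted p = 7.34e-05).

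**Figure D4:**
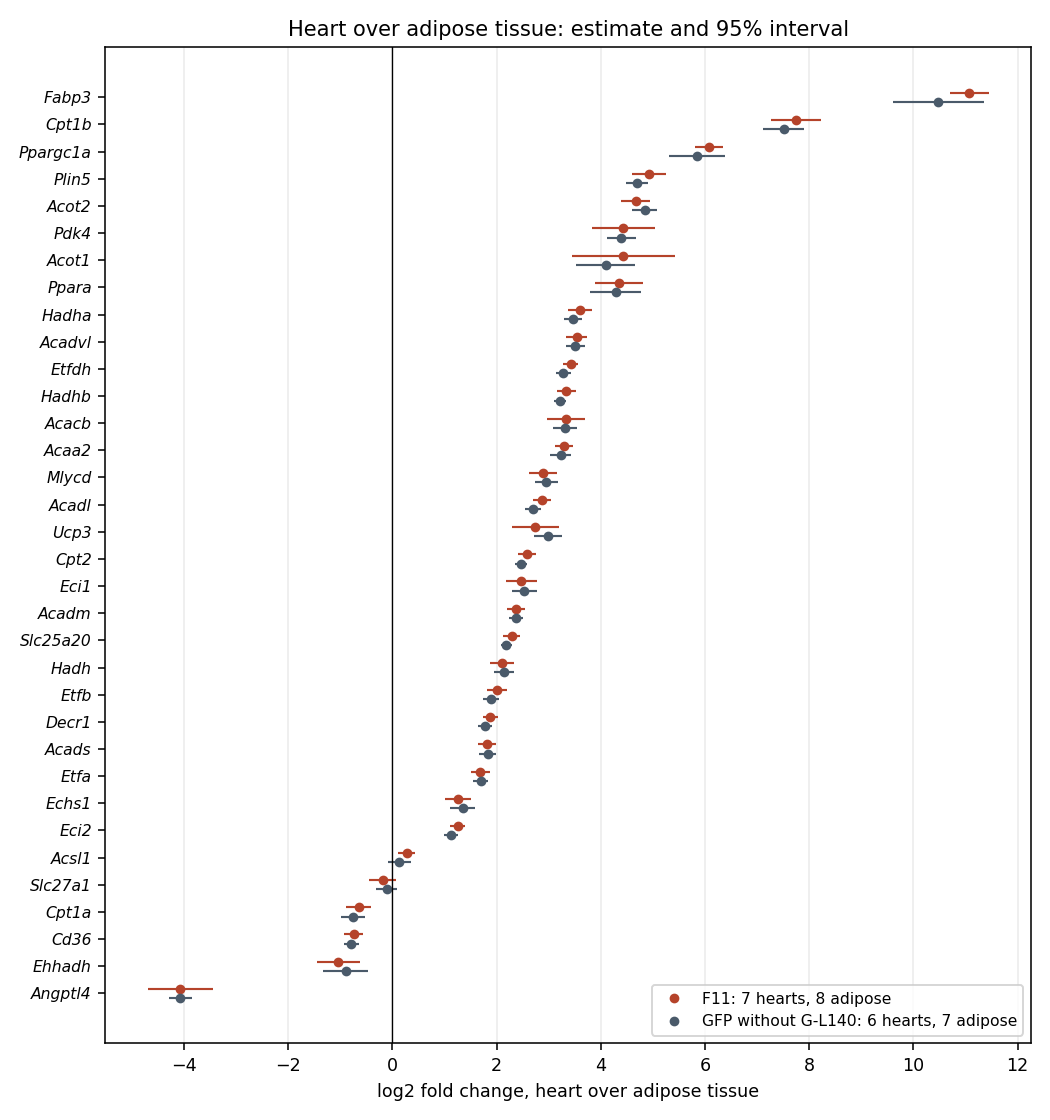
Log2 fold change of heart over adipose tissue for each gene (points) with its 95% interval from edgeR (lines), for F11 samples (upper point) and for GFP samples without G-L140 (lower point), sorted by the F11 value. Values run from 11.07 for Fabp3 to -4.07 for Angptl4 under F11, and 5 genes lie below 0.

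Pairs of genes for one step or one enzyme showed how the tissues differ in makeup. Per kb of transcript, Cpt1b made up 93.9 ± 0.275% of Cpt1a plus Cpt1b in F11 hearts (SD, n = 7) and 93.5 ± 0.45% in GFP hearts (n = 6). The share was 4.32 ± 0.864% in F11 adipose samples (n = 8) and, in GFP adipose samples, 4.39 ± 0.71% without G-L140 (n = 7) and 51.5% in G-L140 itself. Hadha and Hadhb encode the subunits of one enzyme and are transcribed away from each other from starts 85 bases apart. The ratio of Hadha to Hadhb per kb was 0.532 ± 0.0138 in F11 hearts and 0.527 ± 0.0123 in GFP hearts, and 0.444 ± 0.0381 in F11 adipose samples and 0.447 ± 0.0378 in GFP adipose samples. The highest adipose ratios, 0.527 in G-L148 and 0.503 in G-L133, were in the libraries with the highest macrophage marker sums. Together the 34 genes took 2.62 ± 0.168% of nuclear counts in F11 hearts, 2.72 ± 0.086% in GFP hearts, 1.204 ± 0.106% in F11 adipose samples and 1.30 ± 0.107% in GFP adipose samples.

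**Figure D5:**
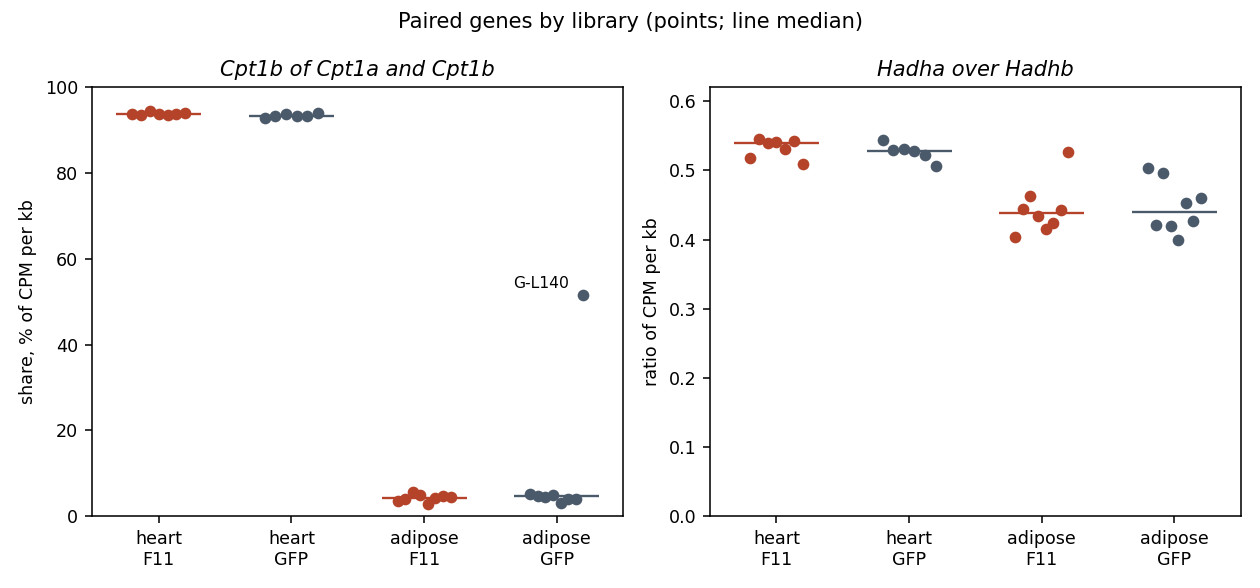
Share of Cpt1b in Cpt1a plus Cpt1b (left, % of CPM per kb) and ratio of Hadha to Hadhb (right, CPM per kb) in each library (points), with the group median (line). The Cpt1b share is near 94% in hearts and near 4% in adipose tissue except for 51.5% in G-L140.

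Related genes outside the 34 were followed in 5 lists. The list of other PPAR targets includes Klf15 and Pdk1, and whether each gene in it answers to a PPAR was not tested here. In hearts, in adipose tissue and in the interaction, edgeR called 0 genes of these lists. In hearts, 4 of 17 other PPAR targets had an unadjusted p under 0.05, as did 3 of 23 regulators, 1 of 11 uptake and activation genes, 0 of 25 mitochondrial acyl-CoA genes and 0 of 16 peroxisomal genes. The share over all heart genes was 12.5%, and no difference between the lists was tested. In adipose tissue 1 of 21 other PPAR targets and 1 of 25 mitochondrial acyl-CoA genes did, and 0 in the other lists, beside 4.19% of all genes. Plin4, a lipid droplet protein, averaged 485 ± 72.3 CPM in F11 hearts and 390.2 ± 26.4 CPM in GFP hearts (log2 fold change 0.31, SE 0.08, edgeR adjusted p = 0.0985). Klf15, a transcription factor of muscle metabolism, averaged 71.9 ± 10.6 CPM in F11 hearts and 59.0 ± 3.57 CPM in GFP hearts (log2 fold change 0.28, SE 0.08, edgeR adjusted p = 0.107). Esrrb, an orphan nuclear receptor, averaged 39.97 ± 2.98 CPM in F11 hearts and 35.2 ± 2.54 CPM in GFP hearts (log2 fold change 0.18, SE 0.055, edgeR adjusted p = 0.136). None of these passed the test.

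Between tissues under F11, the counts of each list are read beside the 38.9% of all genes called higher and the 42.8% called lower, and no difference between lists was tested. Of 25 mitochondrial acyl-CoA genes 17 were called higher and 4 lower in heart. Oxct1, which uses ketone bodies, averaged 1077 ± 100.1 CPM in F11 hearts and 279 ± 35.1 CPM in F11 adipose samples, and the thioesterase Acot9 had a log2 fold change of -1.14 (SE 0.04, called lower). Of 23 regulators 16 were called higher and 6 lower. Esrra, an orphan receptor that works with PGC-1alpha, averaged 150.5 ± 9.89 CPM in F11 hearts and 21.6 ± 1.59 CPM in F11 adipose samples, and Prkaa2, a catalytic subunit of the energy sensor AMPK, had a log2 fold change of 4.84 (SE 0.15, called higher). Of 17 peroxisomal genes 5 were called higher and 9 lower. Abcd2, a peroxisomal fatty acid transporter, averaged 7.59 ± 1.06 CPM in F11 hearts and 434 ± 70.9 CPM in F11 adipose samples. Ech1, an isomerase of unsaturated chains, went the other way at 1456 ± 151 CPM in F11 hearts and 194 ± 38.2 CPM in F11 adipose samples. Of 12 other uptake and activation genes 2 were called higher and 10 lower. Fabp4, the fatty acid binding protein of adipocytes, averaged 478 ± 91.8 CPM in F11 hearts and 7182 ± 1654 CPM in F11 adipose samples, and Dbi, which binds acyl-CoA, had a log2 fold change of -2.93 (SE 0.11, called lower). Of 21 other PPAR targets tested 6 were called higher and 14 lower, with Pdk1, a relative of Pdk4, at 3.05 (SE 0.08, called higher) and Mgll, the lipase of monoacylglycerols, at -2.51 (SE 0.12, called lower) on the log2 scale.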

How the data were processed

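The authors deposited estimated counts per gene. The submitters' processing notes name kallisto 0.46 and GRCm38.p6, and the labels' protocols name miRNeasy RNA extraction, Nugen Universal Plus mRNA libraries and a NovaSeq sequencer. No source used here gives the annotation, the strand setting or the summing to genes. A symbol was found for 35935 of 36558 IDs in the GENCODE annotation on GRCm38. Counts were rounded and fitted with edgeR 4.0.16 in R 4.3.3 (filterByExpr, TMM, robust quasi-likelihood test, two-sided, Benjamini-Hochberg over all genes, threshold 0.05). Each tissue was fitted alone, the interaction over all libraries, and heart against adipose tissue within each vector. DESeq2 1.42.0, limma 3.58.1 voom with quality weights, other filters and scalings, and left-out libraries were alternatives. Fits were also run on simulated counts, in which the groups shared a common mean for each gene apart from genes changed on purpose. No simulated library held markers of another tissue as G-L140 does, so these runs do not test the fits under that condition. Library totals limit the precision of low genes. No pair of libraries of a group agreed within sampling noise (lowest chi-square per degree of freedom 3.36). The genes and lists were chosen with earlier results of these data known. By rule, 17 genes are named: the 6 lowest p-values in each tissue, the 3 lowest of the interaction, both regulators, and the Cpt1 and Acot pairs. Ranges are not printed for all of them in both tissues. Other genes named were picked after their values were seen, and related genes by lowest p-value.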

Additional observations from a re-analysis of the deposited data

Results flagged for a closer look

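Of 68 sets of values tested (17 genes in 4 groups), 10 held a library whose gap to the nearest of the others passed Dixon's 95% critical value, and chance alone passes about 1 in 20 such groups. Library G-L140 of the GFP adipose group was the high one in 6 of the 10. It had 330.9 CPM of Fabp3 and 79.1 CPM of Cpt1b. It also had 409.0 CPM of Hadhb, 322.2 CPM of Acadl, 23.69 CPM of Acot2 and 16.87 CPM of Ppargc1a. Its cardiomyocyte marker sum, 6443 CPM, was the highest of the adipose libraries.

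In the F11 adipose group, G-L142 was high for Acot1, at 6.165 CPM, and low for Angptl4, at 291.4 CPM. It was the library with 6029 CPM of epididymis markers. In the F11 hearts, L40 was high for Angptl4, at 56.18 CPM. In the GFP hearts, L6 was high for Acot2, at 260.5 CPM. The part of these markers in the values was not tested.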

How the results depend on the processing

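No member was called in hearts or in adipose tissue under any setting tried, which covered size factors, filters, DESeq2, limma voom, an adjusted p under 0.1, a fit over all libraries, and each library left out in turn (0 to 0 called over 13 heart and 16 adipose fits). The interaction gave 1 called member with DESeq2 (Fabp3) against 0 with edgeR. Over all genes DESeq2 called 140 higher and 49 lower there, and edgeR 2 and 2. The members' median log2 fold change ranged from -0.0329 to 0.0173 with a heart left out, so its sign was not fixed, and from -0.219 to -0.0742 with an adipose library left out; in adipose tissue it was -0.143 with DESeq2 and -0.0381 with limma voom, against -0.181 with edgeR. Heart against adipose tissue gave 32 calls under GFP without G-L140. Scaled by library totals, Echs1 under F11 and Eci2 under GFP were not called.

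Signs turned for estimates near 0 that no fit called. With a library left out, heart estimates ranged from -0.0429 to 0.0215 for Cpt1a and from -0.103 to 0.00781 for Acot2. In adipose tissue they ranged from -0.145 to 0.00752 for Cpt1a, from -0.221 to 0.0609 for Ppara and from -0.231 to 0.148 for Acot2. With limma voom, Ppara was at 0.213, Acot2 at 0.154 and Mlycd at 0.0395. In settings chosen after seeing the data, Ppara was at 0.0842 and Acot2 at 0.176 without G-L140 and G-L142, and Ppara was at 0.1, Acot2 at 0.207 and Mlycd at 0.0419 without the 6 libraries rich in other tissues' markers. The cause was not tested. The other 791 values include the members' medians, which were compared with the main value by distance and not by sign. The gene estimates among them kept their direction and their side of the threshold.

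No paired analysis was possible because the groups share no library number. Over all genes, hearts gave 76 higher and 52 lower calls with edgeR, 223 and 150 with DESeq2, 122 and 79 with limma voom, and 13 and 17 in the fit over all libraries. Adipose tissue gave 0 with edgeR and limma voom, 11 with DESeq2 and 4 in the fit over all libraries, where the lowest adjusted p of a member was 0.0669. In adipose tissue the spread between libraries was wide (biological coefficient of variation 0.355, beside 0.105 in hearts), which limits what a fold change there can show.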
